A study of Rattus norvegicus with 6 samples.

Results

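Macrophage genes were followed in newborn rat ovaries cultured with or without connective tissue growth factor (CTGF), a secreted matricellular protein. The set holds 10 genes, C1qa, C1qb, C1qc, Mrc1, Cd163, Cd68, Laptm5, Lyz2, Csf1r and Aif1, out of 14324 genes that 1 array probe set or more names without ambiguity. Each of the 10 had exactly 1 such probe set, so all 10 were measured. They were chosen by name, with earlier results of these arrays known, and the CTGF comparison was part of those results. Their differences between CTGF and control ovaries are therefore given as a description without a test, and they are not independent evidence of a direction.

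The arrays compared 3 pools of CTGF ovaries with 3 pools of control ovaries. All ovaries came from newborn Sprague-Dawley female pups and were cultured whole for 24 h, the treated ones with recombinant human CTGF at 500 ng/ml and the controls without treatment. A pool held 2 to 3 ovaries, from different pups of a litter, and each of 3 organ culture batches gave 1 CTGF pool and 1 control pool. The question of the array experiment was which transcripts respond to CTGF before follicles visibly assemble.

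Macrophages are phagocytes of the innate immune system that settle in most organs before birth and depend on the CSF1 receptor for survival. In the ovary they are known for clearing dying cells and for remodelling tissue around follicles and vessels. Tissue macrophages are a main source of C1q, the recognition subunit of the classical complement pathway, which binds antibodies and dying cells and is built of the products of C1qa, C1qb and C1qc. Complement C1r and C1s are the proteases that C1q activates, and unlike C1q they are made by many fibroblast-like cells.

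The C1q genes share a place in the genome that the choice of names did not use. In the RefSeq gene order of the GRCr8 assembly C1qb, C1qc and C1qa are direct neighbours on chromosome 5, between Ephb2 and Epha8, while the other members are not next to one another. RefSeq promoter entries matched 8 of the 10 members. The 250 bases before the start of C1qa and C1qb are shown because these chains carry the clearest pattern below, and those of Mrc1 because its values went in different directions in the batches. Capitals mark GAGGAA, a core bound by the myeloid factor PU.1, and TGCTGA, a half-site of MAF factors, each with its reverse complement (TTCCTC and TCAGCA). The motifs did not overlap in these stretches.
C1qa, chr5:154419934-154420183, minus strand: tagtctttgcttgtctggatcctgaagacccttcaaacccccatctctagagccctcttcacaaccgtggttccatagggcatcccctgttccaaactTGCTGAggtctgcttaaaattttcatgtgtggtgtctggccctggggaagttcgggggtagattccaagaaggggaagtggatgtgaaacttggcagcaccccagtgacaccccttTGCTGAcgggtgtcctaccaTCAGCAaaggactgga
C1qb, chr5:154407828-154408077, minus strand: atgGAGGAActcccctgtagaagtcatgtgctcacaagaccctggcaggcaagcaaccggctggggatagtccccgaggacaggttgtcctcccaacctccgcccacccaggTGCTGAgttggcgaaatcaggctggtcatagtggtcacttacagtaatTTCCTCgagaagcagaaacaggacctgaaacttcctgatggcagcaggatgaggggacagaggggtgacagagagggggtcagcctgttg
Mrc1, chr17:82157475-82157724, plus strand: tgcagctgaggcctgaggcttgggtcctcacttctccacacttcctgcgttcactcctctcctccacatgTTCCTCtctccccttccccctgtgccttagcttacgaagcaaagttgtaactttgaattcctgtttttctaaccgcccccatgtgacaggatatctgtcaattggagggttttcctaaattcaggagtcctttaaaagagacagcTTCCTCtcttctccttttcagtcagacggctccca

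In these windows GAGGAA or its reverse complement occurred in 6 of the 8 members with an entry, C1qb, Mrc1, Csf1r, Cd68, Lyz2 and Laptm5, and in 23.3% of 33469 RefSeq promoters cut to the same length. TGCTGA or its reverse complement occurred in 2 of the 8, C1qa and C1qb, and in 15.1% of those promoters. C1qa held it at 152, 36 and 16 bases before the start and C1qb at 138, while C1qb held GAGGAA at 247 and 90. Such matches describe the letters alone.

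The array gives 1 log2 signal for each of 27342 probe sets, and array medians lay between 5.82 and 5.84 after the authors' normalization. To judge which genes were above background, 38 genes of other organs, such as retina, pancreas, pituitary and lung, were measured on 41 probe sets. The 95th percentile of their mean log2 signals was 5.51, and 54.3% of all probe sets lay above it. The 2 arrays of a batch had the same mean log2 signal in all batches for any probe set, with a tolerance of 0.005. The deposited values therefore hold no offset between batches, and only the difference inside each batch carries information on spread. For the same reason a gene with the same direction in all 3 batches also had groups that did not overlap, in 2977 of 2977 probe sets lower and in 2574 of 2574 probe sets higher with CTGF. Signals of different probe sets also reflect their probes, so the differences given are those of a gene between arrays. Only the background level and the summed signals join probe sets, and the brightest ones weigh most in a sum. No probe set of the array passed an adjusted p of 0.05 between CTGF and control (0 of 27342, or 0%, smallest adjusted p = 0.994 with limma). At an unadjusted p under 0.05, limma, with batch as a block, called 915 probe sets, 3.35% of all, and the methods' 2-way test called 1147. The ratio and signal difference cut-offs that the methods add to that test were not applied.

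Most members had signals above the background level in the cultured ovaries, a level that many probe sets pass. The mean log2 signal of 9 of the 10 members lay above 5.51, and Aif1, at 5.19, did not. A list of 60 further macrophage and monocyte genes was drawn from textbook knowledge, with earlier results of these arrays known. Of these 52 had a probe set and 22 lay above that level, a smaller share than the 54.3% of all probe sets. Among the 22 were Adgre1 (the F4/80 antigen), the leukocyte phosphatase Ptprc, the oxidase subunit Cybb and the Fc receptor chain Fcer1g. Spi1, which encodes PU.1, had a log2 signal between 4.13 and 4.24 on the 6 arrays, and Itgam one between 4.16 and 4.49, so neither defining gene could be read above background. Itgb2, Cx3cr1, Irf8, Siglec1 and Trem2 were below it as well. Some members are not particular to macrophages. Lyz2 is also a gene of granulocytes, Laptm5 of lymphocytes, and Mrc1 of some endothelial cells. Of 11 neutrophil genes 1 was above background, Lcn2, which epithelia also make, and S100a8, S100a9 and Mpo were not. Of 10 lymphocyte genes 3 were above it, Gzmb, Cd3g and Cd79b, and Cd3e, Cd4 and Cd8a were not. In whole ovaries fewer macrophages and less RNA per macrophage cannot be told apart.

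The 3 chains of C1q were each lower in CTGF ovaries than in the control ovaries of the same batch, in all 3 batches, by 0.03 to 0.36 on the log2 scale. Among the other 7 members only Aif1, below background, also had 1 direction throughout. The median difference, CTGF minus control, was -0.15 over the C1q chains, 0.00 over the other 7 members and -0.10 over all 10, beside 0.00 over all probe sets. Without batch 3 the median over all 10 was 0.01. In all, 4 of the 10 were lower in every batch and 0 were higher in every batch, where 10.9% and 9.41% of all probe sets had these patterns. Since these genes were picked with the values known, nothing is read from these counts.

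C1qa encodes the A chain of C1q. Its log2 signals were 6.0, 6.10 and 5.94 in the CTGF pools of batches 1, 2 and 3, against 6.23, 6.13 and 6.30 in the control pools. The highest CTGF pool, of batch 2, lay just under the lowest control pool, of the same batch. With batch offsets removed, such a gap follows from 1 direction in all 3 batches and adds nothing to it. The mean difference was -0.21 with a standard error of 0.08 (n = 3 pairs), a signal of 0.867 times control. It was -0.23, -0.03 and -0.36 in the 3 batches, so batch 2 hardly showed it. With 1 batch left out the mean lay between -0.295 (without batch 2) and -0.13 (without batch 3).

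C1qc, the C chain, had log2 signals of 7.71, 7.59 and 7.66 with CTGF, against 7.75, 7.86 and 7.80 in control ovaries. The CTGF pool was below its control in each batch, by the widest margin in batch 2. The mean difference was -0.15 with a standard error of 0.07, or 0.901 times control, and -0.04, -0.27 and -0.14 in the 3 batches. It was -0.09 without batch 2 and -0.205 without batch 1.

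C1qb, the B chain, had log2 signals of 6.76, 6.71 and 6.70 with CTGF, against 6.81, 6.86 and 6.87 in control ovaries. Here too the CTGF pool was below its control in each batch. The mean difference was -0.12 with a standard error of 0.07, or 0.918 times control, and -0.05, -0.15 and -0.17 in the 3 batches. The chains thus had a common direction but not a common order of batches, since the largest difference was in batch 3 for C1qa and C1qb and in batch 2 for C1qc. Summed over the chains on the un-logged scale, the signals were 381.8, 366.0 and 367.6 with CTGF and 402.5, 418.5 and 418.6 in control ovaries.

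**Figure D1:**
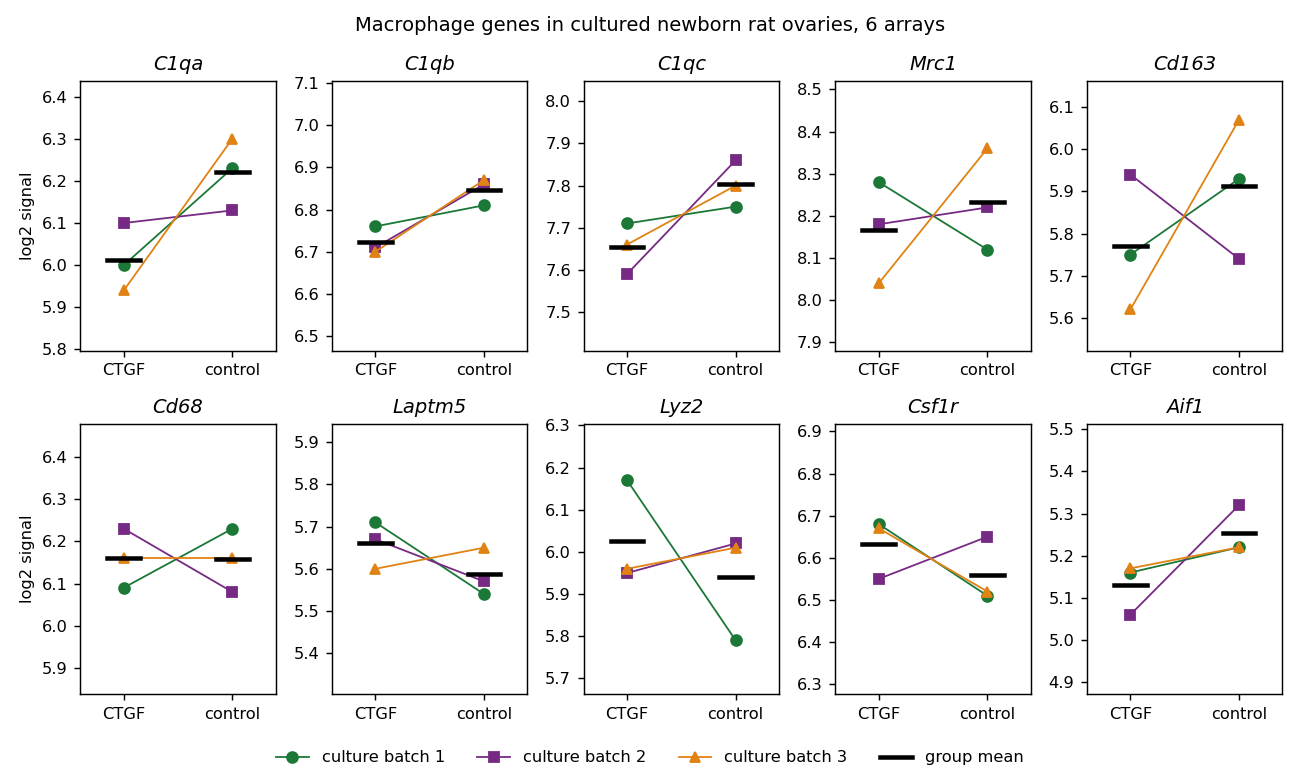
Log2 signal (vertical axis, each panel 0.64 log2 units high) of the 10 macrophage genes in CTGF and control pools (horizontal axis), with a line for each culture batch and a black bar for the group mean (n = 3). All lines of C1qa, C1qb, C1qc and Aif1 run upward to control, while those of the other genes cross or run level.

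The scavenger receptors went in different directions in the batches. Mrc1, the mannose receptor that takes up glycoproteins and collagen fragments, had log2 signals of 8.28, 8.18 and 8.04 with CTGF, against 8.12, 8.22 and 8.36 in control ovaries. The groups overlapped, with the CTGF pool above its control in batch 1 and below it in batches 2 and 3. Its mean difference was -0.07 with a standard error of 0.10, and without batch 3 it was 0.06.

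Cd163, the receptor for haemoglobin bound to haptoglobin, had log2 signals of 5.75, 5.94 and 5.62 with CTGF, against 5.93, 5.74 and 6.07 in control ovaries. It was the most variable member, with differences of -0.18, 0.20 and -0.45 in the 3 batches and an SD of 0.33 between them. The mean difference of -0.14 (standard error 0.12) rested on batch 3 and was 0.01 without it.

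Batch 3 was also the one in which stromal genes were lower with CTGF. All 5 mesenchyme genes had lower signals there, with a median difference of -0.56 and values of -1.03 for the PDGF receptor Pdgfra and -1.08 for the matrix proteoglycan Lum. Of the 8 endothelial genes 5 were lower and 3 higher there, with a median of -0.235 and -0.64 for the sialomucin Emcn. In batches 1 and 2 the median of the mesenchyme genes was 0.12 and 0.07. On the mean of the 3 batches 5 of these genes were lower and 0 higher, with a median of -0.06. Their summed un-logged signal ranged from 3285 to 4245 in CTGF pools and from 3762 to 4869 in control pools, and all 5 were above background. The part of these cells in the values of Mrc1, Cd163 and C1qa in batch 3 was not tested. Without batch 3 the differences of C1qa, C1qb and C1qc were -0.13, -0.10 and -0.155.

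The lysosomal genes showed no common direction. Cd68, a glycoprotein of the macrophage lysosome membrane, had log2 signals of 6.09, 6.23 and 6.16 with CTGF, against 6.23, 6.08 and 6.16 in control ovaries. The batches cancelled, at -0.14, 0.15 and 0.00, and the mean difference was 0.00 with a standard error of 0.08.

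Laptm5, a lysosomal membrane protein of blood cells, had log2 signals of 5.71, 5.67 and 5.60 with CTGF, against 5.54, 5.57 and 5.65 in control ovaries. It was above control in batches 1 and 2 and below it in batch 3, with a mean difference of 0.07 (standard error 0.07). Lyz2, the lysozyme of phagocytes, had log2 signals of 6.17, 5.95 and 5.96 with CTGF, against 5.79, 6.02 and 6.01 in control ovaries. Its mean difference of 0.09 (standard error 0.10) came from batch 1 alone, where it was 0.38, and was -0.06 without that batch. Its neighbour in the RefSeq order, Lyc2, is a further lysozyme gene, and whether the probes tell them apart was not tested.

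Csf1r, the receptor for the macrophage growth factors CSF1 and IL-34, had log2 signals of 6.68, 6.55 and 6.67 with CTGF, against 6.51, 6.65 and 6.52 in control ovaries. The CTGF pool was above its control in batches 1 and 3 and below it in batch 2, and the mean difference was 0.07 with a standard error of 0.08. It was the only member higher with CTGF in batch 3. The ligand Csf1 had differences of 0.29, -0.03 and 0.06 in the batches, their mean being 0.11 with a standard error of 0.08, and Il34 was below background.

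Aif1, a calcium-binding protein of macrophages also called Iba1, had log2 signals of 5.16, 5.06 and 5.17 with CTGF, against 5.22, 5.32 and 5.22 in control ovaries. The CTGF pool was below its control in each batch, and the mean difference was -0.12 with a standard error of 0.07, or -0.055 without batch 2. Its signals lay below the background level on all 6 arrays, so this difference cannot be read as one of macrophage RNA.

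**Figure D2:**
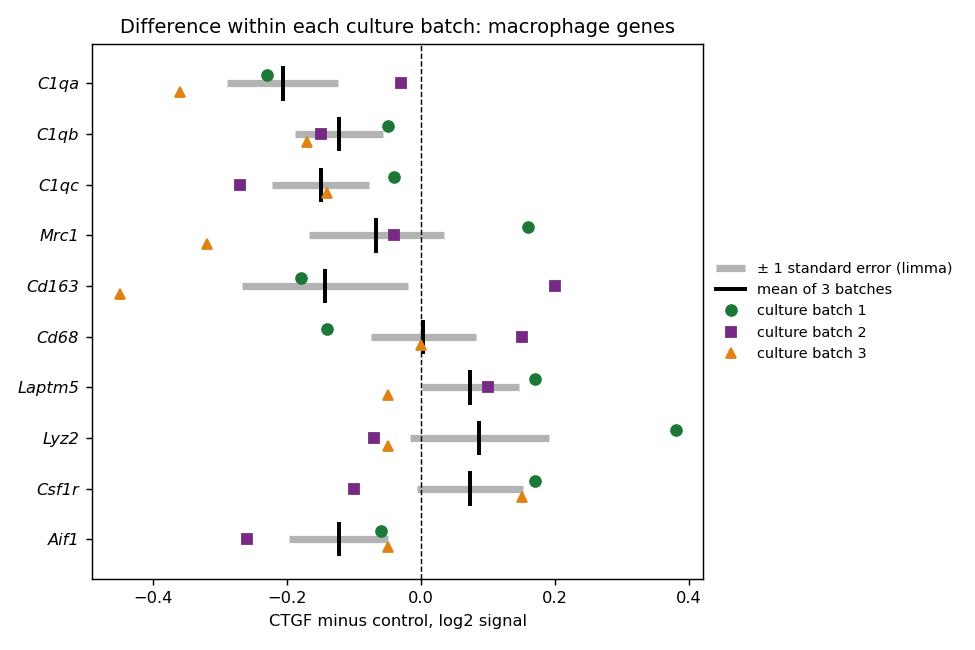
CTGF minus control log2 signal (horizontal axis) of each macrophage gene (vertical axis). Circles, squares and triangles stand for culture batches 1, 2 and 3, and the plot adds the mean (black bar) and the limma standard error around it (grey). The points of C1qa, C1qb, C1qc and Aif1 all lie left of 0, and those of Cd163 run from -0.45 to 0.20.

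The members also differed among themselves within each batch. With CTGF 4 members were higher and 6 lower in batch 1, 3 higher and 7 lower in batch 2, and 1 higher and 8 lower in batch 3, with Cd68 equal. The median difference of the 10 was -0.045 in batch 1, -0.055 in batch 2 and -0.095 in batch 3, while single members spanned -0.45 to 0.38. The summed un-logged signal of the 10 was 1077, 1032 and 1000 in the CTGF pools and 1047, 1091 and 1130 in the control pools, so the CTGF pool was above its control in batch 1 and below it in batches 2 and 3. Adgre1 and Ptprc, defining genes of macrophages and of all leukocytes, had the order of Mrc1. Adgre1 had differences of 0.30, -0.30 and -0.34 in the batches and Ptprc 0.22, -0.06 and -0.32. Other further macrophage genes above background had the reverse order, so no common order is read from these genes. Tyrobp had -0.32, -0.28 and -0.03, Lyve1 -0.32, -0.23 and 0.06, and Coro1a -0.26, -0.14 and 0.12.

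The pattern of the 3 differences was close to 0 for many genes, so likeness to it singled out little. Among 9245 other named probe sets above background, Cdc37l1, Prkra, Anks6, Timm17b, Eno1, Fdxacb1, Atad1 and Gtf3c6 lay closest to the median of the members, at a root mean square distance of 0.010 to 0.013 over the 3 pairs. C1qb, the closest member, was at 0.070 and Cd163, the farthest, at 0.264. As many as 1186 of these probe sets, or 12.8%, lay as close as C1qb.

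Of the 52 further macrophage and monocyte genes measured, 14 were above and 38 below control with CTGF, with a median difference of -0.06 and a range from -0.24 to 0.12. Lower genes made up 73.1% of them, beside 51.1% of all probe sets. Of the 22 above background 19 were lower and 3 higher. In the 3 batches the median of the 52 was -0.015, -0.09 and -0.03. Of the 52, 7 were lower and 3 higher in every batch, beside 10.9% and 9.41% of all probe sets. Among the 22 above background these counts were 5 and 0. At an unadjusted p under 0.05 in limma 4 of the 52 were lower, or 7.69% beside 1.89% of all probe sets, and 0 were higher, beside 1.45%. After adjustment over all probe sets 0 of the 52 passed (adjusted p = 0.994, limma). These genes share the same cell types and arrays and are not independent of one another or of the 10 members. Their list was also drawn up with earlier results of these arrays known, so nothing is read from these counts.

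Cybb, the catalytic subunit of the phagocyte NADPH oxidase, had log2 signals of 7.99, 7.93 and 7.90 with CTGF, against 8.13, 8.18 and 8.22 in control ovaries. The CTGF pool was below its control in each batch, and the mean difference was -0.24 with a standard error of 0.07, or 0.849 times control. Tyrobp, the adaptor of many activating receptors of myeloid cells, had log2 signals of 5.59, 5.61 and 5.73 with CTGF, against 5.91, 5.89 and 5.76 in control ovaries. The mean difference was -0.21 with a standard error of 0.08, although batch 3 had -0.03 only. The chemokine Pf4 and the membrane protein Ms4a7 were the other 2 of the 4 genes, at -0.16 and -0.24. Ms4a7 was below background, and Pf4 was named after its values were seen.

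Among the others with the largest sizes, Gpr34, a lysophospholipid receptor of macrophages, had -0.24 with a standard error of 0.13, almost all of it from batch 2 (-0.64), and -0.04 without that batch. The Fc receptor chain Fcer1g had differences of 0.08, -0.27 and -0.30, a mean of -0.16 with a standard error of 0.09, or -0.285 without batch 1 and -0.095 without batch 3. Itgam had -0.19 at signals below background. Mertk, a receptor for dying cells, had 0.01 (standard error 0.07).

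Other complement genes lay on either side of control. C1r and C1s, the proteases of the C1 complex, were each above control in all 3 batches. C1r had log2 signals of 9.92, 9.98 and 9.92 with CTGF, against 9.83, 9.77 and 9.83 in control ovaries. C1s had 9.70, 9.71 and 9.61 with CTGF, against 9.52, 9.51 and 9.60 in control ovaries. Their mean differences were both 0.13, with standard errors of 0.07, and neither passed (adjusted p = 0.994, limma). The gap between C1q and these proteases was not tested.

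Cfp encodes properdin, a stabilizer of the alternative pathway that leukocytes make. Its log2 signals were 7.44, 7.47 and 7.46 with CTGF, against 7.69, 7.66 and 7.68 in control ovaries. The differences in the 3 batches were -0.25, -0.19 and -0.22. Their mean was -0.22 with a standard error of 0.06, or 0.859 times control (adjusted p = 0.994, limma). C3, the central component, had differences of 0.58, 0.14 and -0.32 in the batches and thus no direction. Of 12 complement genes measured beside C1q 6 were above and 6 below control, with a median of 0.01. At an unadjusted p under 0.05 in limma 1 of them, Cfp, was lower and 0 were higher, beside 1.89% and 1.45% of all probe sets. In every batch 3 were lower (Cfp, Cd46 and Cfd) and 2 higher (C1r and C1s), beside 10.9% and 9.41% of all probe sets. Cfd was below background, with differences of -0.27, -0.01 and -0.01. Cd46 had -0.01, -0.02 and -0.29, and C1s had only 0.01 in batch 3. The list also held Csf1, Il34, Csf2 and Csf3, and over its 16 measured genes the median was 0.02.

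**Figure D3:**
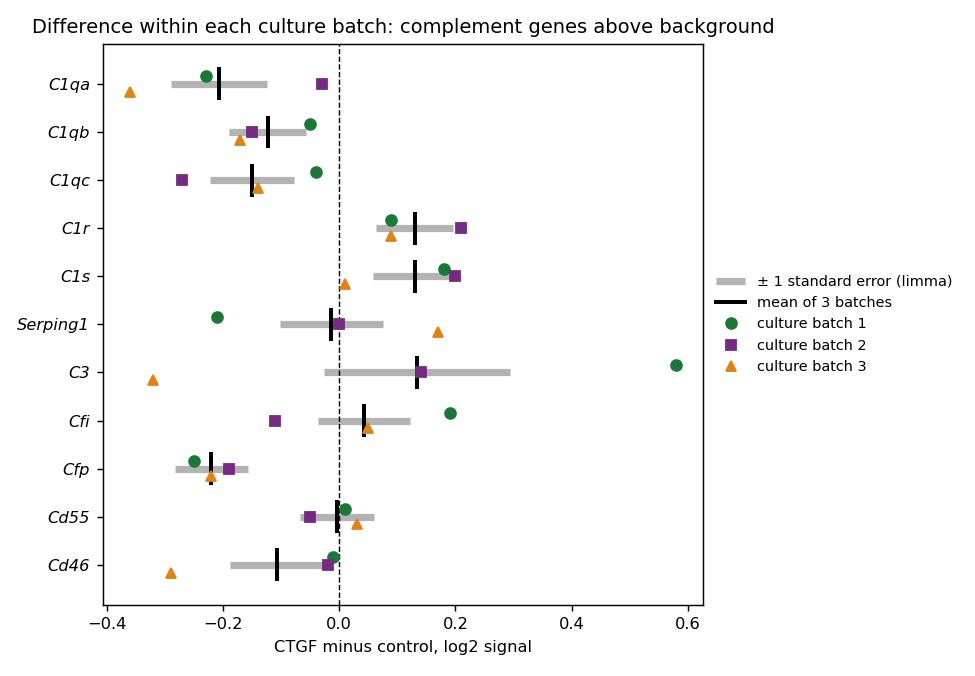
CTGF minus control log2 signal (horizontal axis) of complement genes above background (vertical axis), with C1qbp of the list not shown. Circles, squares and triangles stand for culture batches 1, 2 and 3, and the plot adds the mean (black bar) and the limma standard error around it (grey). The C1q chains, Cfp and Cd46 lie left of 0 and C1r and C1s right of it, while the points of C3 run from -0.32 to 0.58.

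Genes of other cell types were read on the same arrays, from lists also drawn up with earlier results known. Among 9 mast cell genes 7 were below control, or 77.8% beside 51.1% of all probe sets, with a median of -0.15. At an unadjusted p under 0.05 in limma 3 of them, Cpa3, Cma1 and Tpsab1, were lower, or 33.3% beside 1.89% of all probe sets. Cma1 and Tpsab1 were below background. In the other cell type lists Lcn2 and Kit were higher and Cd3e, below background, was lower by the same measure. Among the 38 genes of other organs 1 was lower by it, the lung gene Scgb1a1, also below background. It was lower in every batch, with a mean difference of -0.24 and a standard error of 0.07. Cpa3, a mast cell protease, had log2 signals of 7.91, 7.58 and 7.22 with CTGF, against 8.05, 8.38 and 8.74 in control ovaries, a mean difference of -0.82 (standard error 0.23), or -0.47 without batch 3. Only 3 of the 9 mast cell genes were above background, Cpa3, Ms4a2 and Mcpt1. The protease gene Mcpt1 had differences of 0.49, -0.04 and -0.41 and a mean of 0.01 (standard error 0.16). Ms4a2 had -0.01, -0.44 and 0.01 and a mean of -0.15 (standard error 0.10). The summed mast cell signal was 473.1 to 622.1 in CTGF pools and 601.0 to 822.2 in control pools. Mast cells also express Fcer1g and Laptm5, and their part in these values was not tested. The 6 erythroid genes had a median of -0.03, the 11 neutrophil genes -0.02 and the 10 lymphocyte genes -0.02. The 8 endothelial genes had a median of -0.11, and the 5 ovarian somatic genes one of -0.03. The 6 oocyte genes had a median of 0.07, with 6 higher and 0 lower on the mean, beside 51.1% of all probe sets lower. In the 3 batches the median of the oocyte genes was 0.12, -0.245 and 0.27, with 4 of 6 lower in batch 2. Their summed signal was 4172, 3710 and 4392 in CTGF pools and 3738, 4213 and 3544 in control pools. Sycp1 and Sycp3 had mean differences of 0.11 and 0.16, and their signs turned without batch 3. None of these genes passed over all probe sets (smallest adjusted p = 0.994, limma).

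**Figure D4:**
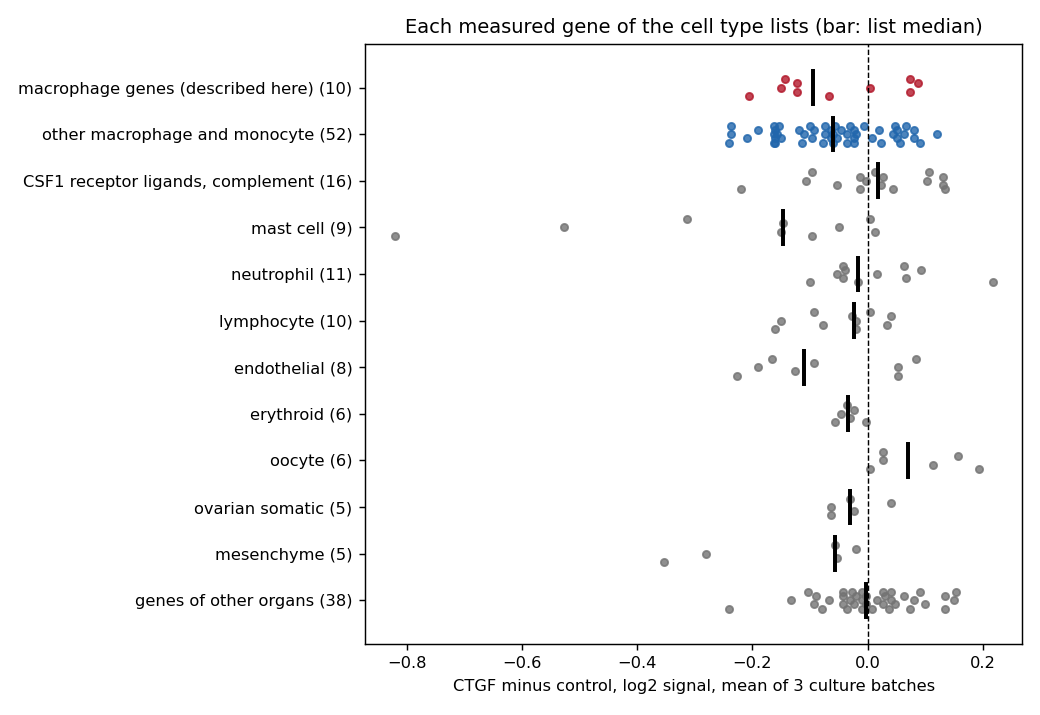
Mean CTGF minus control log2 signal over 3 culture batches (horizontal axis) for every measured gene (points) of each cell type list (vertical axis, number of genes in parentheses), with the list median (black bar). The 10 macrophage genes spread from -0.21 to 0.09 and the 52 further ones from -0.24 to 0.12, while the mast cell gene Cpa3 lies farthest out at -0.82.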

How the data were processed

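RNA of 3 CTGF and 3 control ovary pools was hybridized to Affymetrix Rat Gene 1.0 ST arrays. The authors combined the probes of each probe set to 1 value with RMA in Partek, with a GC-content adjustment, and deposited log2 values with 2 decimals for 27342 probe sets. No value column was without a sample (0). Groups came from the labels. The labels also tie replicate numbers to organ culture batches, and the methods block for these. Taken as deviations from the group mean, the arrays of a pair correlated at -0.9988, -0.9988 and -0.9991. The pairs by replicate number are thus those over which batch differences were removed before deposit.

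CTGF minus control was fitted with limma 3.58.1 in R 4.3.3 (lmFit, eBayes, batch as a block, 2 residual and 4.22 prior degrees of freedom) on all probe sets without a filter, with Benjamini-Hochberg adjustment. The standard errors are the moderated ones. The labels call the pools biological replicates. The number of arrays limits the precision. In simulated arrays with the spread of these 27342 probe sets, 50 probe sets each were changed 1.2-fold, 1.5-fold, 2-fold and 4-fold. At an adjusted p under 0.05 for this comparison limma found 0%, 28%, 70% and 92% of them.

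Symbols came from the platform annotation, with 15097 probe sets of 1 symbol, 323 of several and 11922 of none. Current symbols were found for 15067 through Entrez numbers in RefSeq (GRCr8). For a gene with several probe sets the brightest was used. The members and lists were chosen with earlier results of these data known. Named genes are all members, the 6 further macrophage genes and 4 complement or CSF1 receptor ligand genes with the largest size of difference, up to 3 of each other list, markers that check a label, and the 8 probe sets closest to the members' median. Genes outside this rule, such as Pf4, Csf1, Mertk, Cd46, Cfd, Lyve1, Coro1a, Ms4a2 and Mcpt1, were named after their values were seen. No list held a gene of another (0). Alternatives were a fit without the batch, quantile normalization, median centring, a filter on dim probe sets, the methods' 2-way test, eBayes with a trend or made robust, each replicate pair left out, and the mean over a gene's probe sets.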

Additional observations from a re-analysis of the deposited data

How the results depend on the processing

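The fit with no replicate block called 4415 probe sets at an unadjusted p under 0.05, beside 915 with culture batch as a block. It counts degrees of freedom that the removal of batch differences had used up. No probe set passed an adjusted p of 0.05 without the block or in the methods' 2-way test (0 in each). With dim probe sets left out, the count was 417 of 14838, fewer being tested. Leaving out a replicate pair gave 645 to 1244. The median difference of the 10 macrophage genes, -0.10, was -0.067 over the 9 above background, Aif1 having dropped out, and ranged from -0.14 to 0.0075 with a replicate pair left out, the last without replicate 3. Scaling by quantiles or array medians gave -0.09 and -0.08. The median of the 52 further macrophage genes stayed between -0.10 (22 above background) and -0.045 in every alternative run. Of 69 values of single members under the alternatives, 4 changed sign, each when 1 pair was left out: Cd163 and Mrc1 without replicate 3, Lyz2 without replicate 1 and Cd68 without replicate 2. The other 6 members kept theirs. Signals below background limit Aif1, Spi1 and Itgam. Laptm5, Tyrobp and Cd163, with mean log2 signals of 5.62, 5.75 and 5.84, lay only a little above the level of 5.51.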
